A study of Mus musculus with 24 samples.

Results

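Gene expression in mouse liver late in the subjective night (circadian time 21, CT21) was compared with that early in the subjective night (CT15), 6 h before. The comparison used the 3 arrays labelled CT21 and the 3 labelled CT15, out of 24 arrays at 8 times 3 h apart, and took in every one of the 19935 genes that the array annotation ties to a single symbol. Both groups were livers of adult male C57BL/6 mice of unaltered genotype, kept first in a cycle that alternated light with dim red light, then in dim red light throughout, and fed freely. Livers were taken on the second cycle after that move, and RNA of each liver went onto its own Affymetrix Mouse Gene 1.0 ST array, so the 3 arrays of a time stand for separate animals. The labels speak of 4 mice per time in their treatment text and of 3 replicates in their extraction text, and the series text names 4 times where the samples carry 8. The grouping follows the sample titles. No mouse was followed through the night, so the 6 h step is a difference between animals. Fewer cells of a type and less RNA per cell cannot be told apart in whole tissue.

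The liver clock is a feedback loop of transcription. BMAL1 (gene Arntl) and CLOCK bind E-box sequences and switch on the Per, Cry, Nr1d, Dbp and related genes. PER and CRY proteins then block BMAL1 and CLOCK, and the REV-ERB proteins made from Nr1d1 and Nr1d2 block Arntl through ROR elements. Mice feed and are warmest in the active night, and liver heat shock genes, which heat shock factor 1 drives through paired GAA blocks, are known to cycle with body temperature even where the liver clock is stopped. Feeding also brings signals that turn hepatic lipid, glycogen and bile acid genes up or down. CT15 lies shortly after the start of this active time, and CT21 shortly before its end.

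Values are given as log2 values from which the median of the same probe set over the 24 arrays was subtracted. A value of 0 is therefore a gene's own median and not an absence of expression, and levels cannot be compared between genes. The log base was taken as 2, since no source used here gives it. Differences are CT21 minus CT15, with the standard error of limma's fit to all 24 arrays. A gene was called when limma's Benjamini-Hochberg adjusted p over the 19935 genes was below 0.05. An exact permutation test of 3 arrays against 3 cannot go below 0.1, so calls rest on limma's model, which shares its spread over genes and times. Arrays have no read depth, and precision was limited by their number.

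Of the 6 arrays, 1 in each group stood apart. The interquartile range over all probe sets was 0.200 in CT21 replicate 3 and 0.174 in CT15 replicate 2, the widest and second widest of the 24 arrays (range 0.0992 to 0.200). These arrays held 10.2% and 9.22% of probe sets beyond 0.3 from the median and ran against each other over all probe sets (Pearson's r = -0.39). Counts of calls are therefore also given without both of them. No pair of arrays held identical values (0 of 276 pairs). Mean values of 56 probe sets for small nucleolar RNAs, which move with how much short RNA an extraction keeps, were 0.21, -0.13 and -0.11 in the CT21 arrays, against 0.076, 0.21 and -0.025 in the CT15 arrays. With this mean as a covariate 715 genes were called in the step (674 of them among the 952 called without it). All 952 kept their sign, but they were picked on these same arrays, so this is not support. Of the called genes picked by the naming rules (given with the data processing), 5 were lost: Slc41a2 (adjusted p = 0.0635), Cad (0.0695), Psma2 (0.0554), Ephx1 (0.0592) and Klf5 (0.0744). Other called genes given in the text are not in this count.

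The step from early to late night changed 952 genes, which is 4.78% of those tested. Of these, 314 genes (1.58%) were higher at CT21 and 638 (3.20%) were lower. Most differences were small, with a median of 1.29-fold among called genes. A change of at least 1.5-fold was found for 140 called genes, of which 37 were higher and 103 lower. At least 2-fold changes were found for 6 higher and 17 lower genes. The 3 arrays of CT21 lay wholly above those of CT15 for 11.4% of all genes and wholly below for 10.1%, and this held, either way, for 920 of the 952 called genes. Over all genes the median difference was 0.015.

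The number of calls depended on single arrays. It was 1830, 439 and 279 without CT21 replicates 1, 2 and 3, and 1438, 480 and 591 without CT15 replicates 1, 2 and 3. Without both wide arrays 237 genes were called (1.19%), of which 207 were among the 952. All 952 kept their sign without them, with a median ratio of the difference to the one reported of 0.848. The 952 were picked on these same arrays, and 920 of them did not overlap between groups. Leaving arrays out cannot turn the sign of those 920, so the kept signs are not support. Over the 8 times, 386 of the 638 genes called lower had their highest mean at CT15 and 391 had their lowest at CT21. Among the 314 genes called higher, 187 had their highest mean at CT21 and 178 their lowest at CT15.

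The largest increases were in genes of transport, fatty acid elongation and protein turnover. Aqp8, a water channel of the hepatocyte's canalicular membrane, measured 0.32, 0.37 and 0.34 at CT21, against -1.64, -1.06 and -1.32 at CT15. The CT21 arrays lay close together and far above all CT15 arrays, a difference of 1.68 ± 0.14 or 3.21-fold (adjusted p = 7.01e-07). Elovl3, which elongates very long fatty acids and is higher in male liver, measured 1.11, 1.14 and 0.86 at CT21, against -0.63, -0.79 and -0.44 at CT15. The groups did not overlap, and the difference was 1.66 ± 0.17 (adjusted p = 7.47e-06). Rnf125, a ubiquitin ligase, measured 0.66, 1.07 and 0.78 at CT21, against -0.64, -0.75 and -0.36 at CT15, again without overlap, and was 2.69-fold higher (adjusted p = 5.93e-06). Clpx, the unfoldase of the mitochondrial ClpXP protease, had the smallest adjusted p of these genes (2.63e-07). Its values were 0.66, 0.56 and 0.48 at CT21, against -0.59, -0.36 and -0.39 at CT15, and all its CT21 arrays were high.

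Further genes among the 15 largest increases were Ppp1r3c, which brings protein phosphatase 1 to glycogen (1.10 ± 0.25), and Camk1d, a calcium and calmodulin dependent kinase (0.93 ± 0.10). Insig2, which holds the sterol sensor SCAP in the endoplasmic reticulum, rose by 0.92 ± 0.13. Dhrs9, a retinol and steroid dehydrogenase, rose by 0.89 ± 0.093, Dtx4, a Deltex ubiquitin ligase, by 0.82 ± 0.069, and Denn2b by 0.79 ± 0.13. All 6 kept their calls without both wide arrays. B3galt1, a galactosyltransferase, measured 0.44, 0.86 and 1.03 at CT21, against -1.17, 0.33 and -0.47 at CT15. Its CT15 arrays were widely spread and the highest lay just under the lowest CT21 array. The vasopressin receptor gene Avpr1a (0.88 ± 0.21, adjusted p = 0.0176) and the magnesium transporter gene Slc41a2 (0.79 ± 0.22, adjusted p = 0.0397) were the least stable. Avpr1a lost its call without CT15 replicate 1 (0.68, adjusted p = 0.0552), without CT15 replicate 2 (0.89, adjusted p = 0.0512), without CT21 replicate 2 (0.87, adjusted p = 0.0607) and without CT21 replicate 3 (0.90, adjusted p = 0.0648). Slc41a2 overlapped between groups and lost it without CT15 replicate 1 (0.65, adjusted p = 0.0913), CT15 replicate 3 (0.62, adjusted p = 0.144), CT21 replicate 2 (0.72, adjusted p = 0.129) and CT21 replicate 3 (0.75, adjusted p = 0.166). B3galt1 lost it without CT21 replicate 3 (1.09, adjusted p = 0.0595), and Ppp1r3c without CT15 replicate 3 (1.04, adjusted p = 0.0517) or CT21 replicate 2 (0.95, adjusted p = 0.0787).

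The largest decreases held clock output, chaperone and lipid genes. Mfsd2a, a transporter of lysophosphatidylcholine, measured -0.78, -0.46 and -0.35 at CT21, against 2.07, 0.92 and 1.00 at CT15. CT15 replicate 1 was far above the other arrays, but all CT15 arrays exceeded all CT21 arrays, and the gene was 3.63-fold lower at CT21 (adjusted p = 0.00526). Nrg4, a secreted ligand of the ErbB receptors, measured -0.39, -0.41 and -0.45 at CT21, against 1.35, 0.68 and 1.12 at CT15. Its CT21 arrays were close together and lay below every CT15 array (-1.47 ± 0.15, adjusted p = 1e-05). P4ha1, a catalytic subunit of collagen prolyl hydroxylase, measured 0.17, -0.27 and -0.12 at CT21, against 1.00, 1.01 and 1.07 at CT15. Here the CT15 arrays were the tight group, and P4ha1 fell with an adjusted p of 5.15e-06. Fmo2, a flavin monooxygenase, fell (-1.24 ± 0.15, adjusted p = 8.19e-05).

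Cyp4a14, an omega-hydroxylase of fatty acids and a target of PPARα, had the largest mean difference but also a large standard error (-1.89 ± 0.52). It measured -0.76, -1.26 and -1.54 at CT21, against 1.14, 0.18 and 0.79 at CT15, without overlap, and its adjusted p of 0.0406 lay near the threshold. Its call was lost without CT15 replicates 1, 2 or 3 (-1.67, adjusted p = 0.081; -2.15, adjusted p = 0.055; -1.85, adjusted p = 0.0926) and without CT21 replicates 2 or 3 (-1.85, adjusted p = 0.109; -1.72, adjusted p = 0.19). Abcd2, a peroxisomal transporter of very long fatty acids, measured -1.23, -1.15 and -1.10 at CT21, against 0.37, -0.48 and 0.16 at CT15. All its CT21 arrays were low, yet the call (-1.17 ± 0.31, adjusted p = 0.0348) did not last when any array but CT15 replicate 2 was left out. The largest of those p-values was that without CT21 replicate 3 (-1.20, adjusted p = 0.113). The adjusted p was 0.0509 without CT21 replicate 1, 0.0904 without CT21 replicate 2, 0.0781 without CT15 replicate 1 and 0.0921 without CT15 replicate 3. Cyp17a1, the steroid 17-hydroxylase, fell (-1.13 ± 0.24, adjusted p = 0.0099) and lost its call without CT21 replicate 3 (-1.11, adjusted p = 0.0531) or CT15 replicate 3 (-0.99, adjusted p = 0.051). Of the 30 genes with the 15 largest differences each way, 25 were still called without both wide arrays. The others were Avpr1a, Cyp8b1, Cyp4a14, Nr1d1 and Abcd2, with adjusted p of 0.131, 0.0962, 0.199, 0.112 and 0.0681 on that set.

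**Figure D1:**
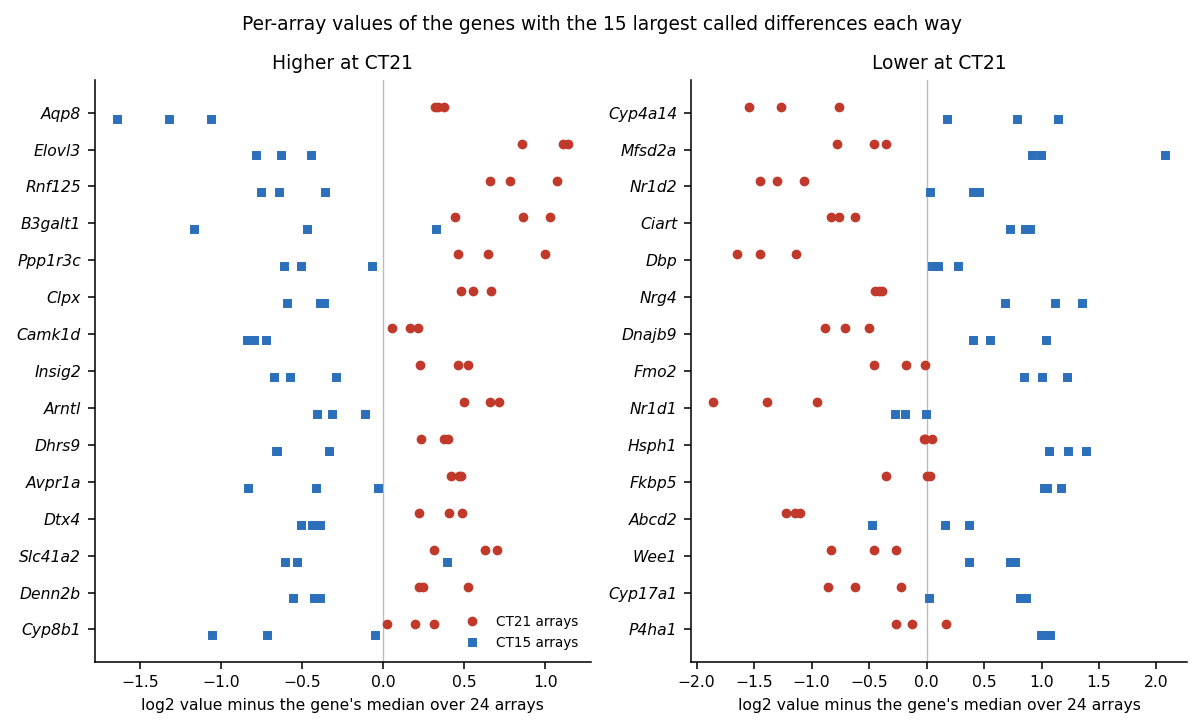
Centred log2 values of single arrays (horizontal axis) for the genes with the 15 largest called differences in each direction, CT21 arrays as red circles and CT15 arrays as blue squares. The groups overlap only for Slc41a2 among the 30 genes, and Cyp4a14 shows the largest difference.

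The called clock genes moved in opposite directions by their place in the loop. Of the 13 tested genes of the repressing side and its outputs (Per, Cry, Nr1d, Bhlhe, Ciart and PAR bZIP genes), 9 were lower at CT21 (69.2%, against 3.20% of all genes) and 0 higher, with a list median of -0.70. Of the 5 tested genes of the activating side and ROR element targets, Arntl and Clock were higher (against 1.58% of all genes) and none lower. Without both wide arrays 7 and 2 remained called. These lists hold genes known to cycle, so their counts are a description of the step.

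The REV-ERB genes lay far down at CT21. Nr1d2 measured -1.45, -1.07 and -1.30 at CT21, against 0.45, 0.029 and 0.41 at CT15, with all CT21 arrays at least a log2 unit below the CT15 arrays (-1.57 ± 0.25, adjusted p = 0.000943). Nr1d1 measured -1.85, -0.95 and -1.38 at CT21, against -0.0034, -0.28 and -0.19 at CT15, close to its median at CT15 and lower at CT21 (-1.24 ± 0.29, adjusted p = 0.0172). Its call was lost without CT21 replicate 3 (-1.25, adjusted p = 0.0694) and without both wide arrays (-1.31, adjusted p = 0.112). Its 3 CT18 arrays, at -1.98, -1.72 and -1.68, were the lowest point of the 8 times, and its mean was lower there than at CT21.

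The PAR bZIP genes, whose proteins bind D-boxes in output genes, fell together. Dbp measured -1.65, -1.45 and -1.14 at CT21, against 0.045, 0.10 and 0.27 at CT15 (-1.55 ± 0.29, adjusted p = 0.00339) and Tef measured -0.37, -0.51 and -0.47 at CT21, against 0.48, 0.15 and 0.39 at CT15 (-0.79 ± 0.10, adjusted p = 0.00015), both without overlap. Hlf moved less, at -0.15, -0.095 and -0.12 at CT21, against 0.0012, 0.23 and 0.27 at CT15. Its difference of -0.29 ± 0.082 passed narrowly (adjusted p = 0.0447) and lost its call without CT21 replicates 1, 2 or 3 (-0.28, adjusted p = 0.0665; -0.30, adjusted p = 0.0947; -0.29, adjusted p = 0.152) and without CT15 replicates 2 or 3 (-0.26, adjusted p = 0.164; -0.24, adjusted p = 0.144) and without both wide arrays (adjusted p = 0.346). Ciart, whose product represses BMAL1 and CLOCK, measured -0.76, -0.83 and -0.62 at CT21, against 0.85, 0.90 and 0.73 at CT15. Its groups were tight and more than a log2 unit apart (-1.56 ± 0.23, adjusted p = 0.000383), and both of its probe sets were called (-1.76 and -1.37).

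The Per genes were lower at CT21, and no Cry gene was called. Per1 measured -0.18, -0.32 and 0.15 at CT21, against 0.80, 0.48 and 0.45 at CT15 (-0.69 ± 0.13, adjusted p = 0.00481). Per2 measured 0.16, -0.27 and 0.0066 at CT21, against 0.74, 0.76 and 0.50 at CT15 (-0.70 ± 0.13, adjusted p = 0.00289). Per3 measured -0.64, -0.45 and -0.52 at CT21, against 0.43, 0.11 and 0.31 at CT15 (-0.82 ± 0.15, adjusted p = 0.00323). In none of these did the groups overlap. Cry1 went the other way in its mean, at 0.88, 0.72 and 0.56 at CT21, against 0.52, 0.077 and 0.36 at CT15. All CT21 arrays were above all CT15 arrays, but the difference of 0.40 ± 0.12 was not called (adjusted p = 0.0626). Cry1 was called higher after quantile normalization, with array weights and without CT15 replicate 1. Cry2 (-0.14 ± 0.094, adjusted p = 0.371), Bhlhe40 (-0.17 ± 0.20, adjusted p = 0.63) and Bhlhe41 (-0.086 ± 0.14, adjusted p = 0.741) overlapped between groups and were not called.

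Among genes of the activating side and ROR element targets, Arntl measured 0.66, 0.71 and 0.50 at CT21, against -0.41, -0.32 and -0.11 at CT15, without overlap, and was 1.87-fold higher at CT21 (adjusted p = 0.000344). Clock measured 0.22, 0.17 and 0.15 at CT21, against -0.39, -0.037 and -0.053 at CT15 and rose by 0.34 ± 0.071 (adjusted p = 0.00836). Nfil3 (0.16 ± 0.16), Rora (0.20 ± 0.10) and Arntl2 (0.12 ± 0.067) were above 0 and not called, with adjusted p between 0.262 and 0.55. Among 14 tested genes for proteins that modify clock proteins, Usp2, a deubiquitinase with a strong daily rhythm, was the only call, at -0.18, -0.24 and -0.14 at CT21, against 0.74, 0.43 and 0.68 at CT15 (-0.80 ± 0.13, adjusted p = 0.00083). That is 7.14% of the list, against 4.78% of all genes. The casein kinase genes Csnk1d (0.013 ± 0.058) and Csnk1e (-0.025 ± 0.058) had differences near 0.

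**Figure D2:**
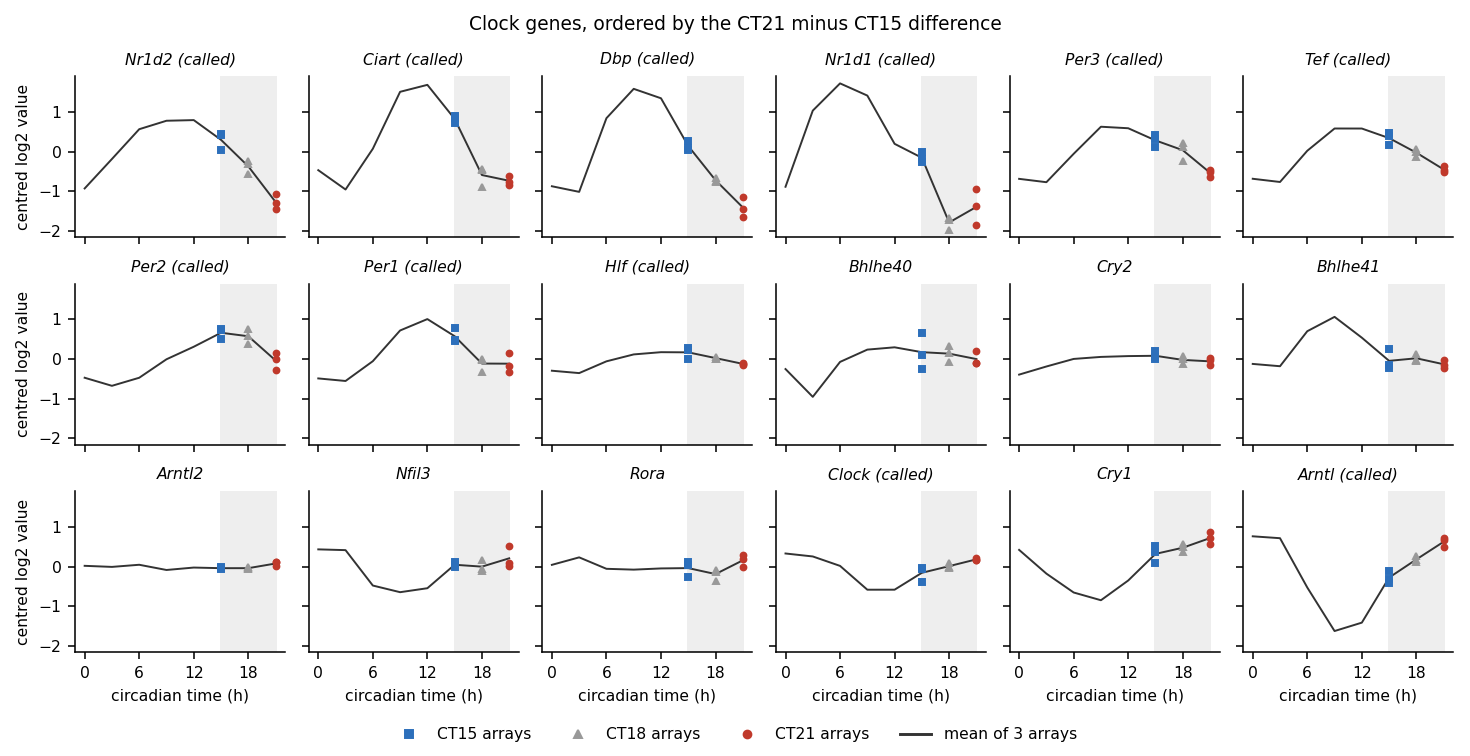
Mean centred log2 value (vertical axis, lines, 3 arrays each) over circadian time in hours (horizontal axis) for the 18 tested clock genes, with the single arrays of CT15 (blue squares), CT18 (grey triangles) and CT21 (red circles) and the compared span shaded. The 9 called repressor and output genes are lower at CT21 than at CT15 and Arntl and Clock are higher, and Nr1d1 is lowest at CT18.

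Some clock genes hold the letters of the loop's elements in their promoter sequences, and others do not. RefSeq windows of 300 bases (GRCm38.p6, 250 before to 50 after a start) were searched on both strands. The E-box CACGTG was found in 5 of the 11 repressor and output genes with a window, against 9.5% of the 15612 tested genes with a window and 7.15% of all 32851 windows. Of those 5, Ciart, Per1 and Tef were called lower, and Bhlhe41 and Cry1 were not called. The D-box TTATGNAA was in Per1 and Per3 (3.6% of tested genes). The ROR element core TNGGTCA was in Arntl and Nfil3 of the 5 genes of the activating side and ROR element targets (11.9% of tested genes). Of these, Arntl was called and Nfil3 was not. The core was also in 3 of the 11 repressor and output genes, Per3, Tef and Cry2. The windows of Dbp, Nr1d1, Nr1d2 and Hlf, all called lower, held no E-box, D-box or ROR core. Those of Clock, Rora and Arntl2 held none either. Among called genes of the whole table, the E-box was in 15.8% of 533 lower genes and 8.98% of 256 higher genes with a window, and the ROR core in 10.1% and 15.6%. A match of letters is a description and does not show that a factor binds. The windows of Ciart (chr3:95882179-95882478, minus strand), Per1 (chr11:69098699-69098998, plus strand) and Arntl (chr7:113207261-113207560, plus strand) are printed because they hold these letters in genes called in either direction, with E-boxes in Ciart, an E-box and a D-box in Per1 and ROR cores in Arntl in capitals:
Ciart: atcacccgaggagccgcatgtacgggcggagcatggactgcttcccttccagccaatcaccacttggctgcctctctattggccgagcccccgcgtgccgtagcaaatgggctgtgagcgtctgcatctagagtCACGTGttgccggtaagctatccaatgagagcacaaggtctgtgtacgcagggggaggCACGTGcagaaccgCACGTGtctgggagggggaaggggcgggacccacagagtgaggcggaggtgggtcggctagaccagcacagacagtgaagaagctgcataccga
Per1: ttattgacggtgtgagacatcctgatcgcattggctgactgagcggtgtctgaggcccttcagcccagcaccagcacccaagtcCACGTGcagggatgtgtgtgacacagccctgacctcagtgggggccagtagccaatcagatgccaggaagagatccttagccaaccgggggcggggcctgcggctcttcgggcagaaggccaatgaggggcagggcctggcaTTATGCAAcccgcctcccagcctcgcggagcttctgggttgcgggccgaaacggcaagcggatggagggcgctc
Arntl: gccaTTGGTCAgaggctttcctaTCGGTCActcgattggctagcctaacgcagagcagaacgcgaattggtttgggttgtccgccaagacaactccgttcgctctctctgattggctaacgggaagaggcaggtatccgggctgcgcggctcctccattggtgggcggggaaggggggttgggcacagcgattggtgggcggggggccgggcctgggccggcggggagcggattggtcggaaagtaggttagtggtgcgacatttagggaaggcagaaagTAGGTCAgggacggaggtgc

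Heat shock chaperone genes formed the list with the second largest share of calls. Of 18 tested genes, 10 were lower at CT21 and 0 higher, or 55.6% against 3.20% of all genes, and the list median was -0.40. Without both wide arrays 9 were called, and over the alternatives run on all genes the count lay between 7 and 11. Hsph1, a nucleotide exchange factor for HSP70 proteins, measured -0.021, -0.013 and 0.049 at CT21, against 1.23, 1.39 and 1.07 at CT15. Its groups were tight and more than a log2 unit apart, and it was 2.34-fold lower (adjusted p = 1.69e-05). Hspa8, the constitutive HSP70 of the cytosol, measured -0.12, -0.65 and -0.40 at CT21, against 0.61, 0.62 and 0.57 at CT15, without overlap (-0.99 ± 0.099, adjusted p = 7.47e-06). Each of its 3 probe sets was called (-0.98, -0.97 and -1.03), though copies of the gene elsewhere in the genome may share its probes.

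The J-domain co-chaperones, which deliver clients to HSP70, were also lower. Dnajb1 measured 0.16, -0.46 and -0.10 at CT21, against 1.04, 1.01 and 0.86 at CT15 (-1.10 ± 0.14, adjusted p = 0.00015), and Dnajb4 measured -0.0078, -0.46 and -0.43 at CT21, against 0.62, 0.68 and 0.64 at CT15 (-0.95 ± 0.10, adjusted p = 1.55e-05). Dnaja1 showed the same direction (-0.77 ± 0.10, adjusted p = 0.000222). In all 3 genes every CT21 array lay under every CT15 array. Chordc1, an HSP90 partner, measured -0.033, -0.19 and -0.27 at CT21, against 0.48, 1.07 and 0.77 at CT15 (-0.94 ± 0.15, adjusted p = 0.000955). Bag3, which links HSP70 to autophagy, measured 0.21, -0.061 and -0.11 at CT21, against 0.99, 0.96 and 0.58 at CT15 (-0.83 ± 0.13, adjusted p = 0.00107). The small heat shock protein gene Hspb8 (-0.55 ± 0.085), the HSP70 to HSP90 adaptor gene Stip1 (-0.44 ± 0.10) and the inducible Hspa1a (-0.36 ± 0.094) completed the called members. The near-identical copy of Hspa1a may share its probes. Of the 10, Stip1 was the member not called without both wide arrays (-0.36, adjusted p = 0.24), and it lost its call without CT21 replicate 3 (adjusted p = 0.074) or CT15 replicate 2 (adjusted p = 0.0877). Hspa1a lost it without CT21 replicates 1, 2 or 3 (adjusted p = 0.0767, 0.0556 and 0.0811) or CT15 replicates 1 or 3 (adjusted p = 0.0789 and 0.104).

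The other 8 members were not called. Hsp90aa1, the inducible HSP90, measured 0.32, 0.41 and 0.37 at CT21, against 0.50, 0.78 and 0.65 at CT15, and Hspa4l measured 0.40, 0.50 and 0.31 at CT21, against 0.42, 0.71 and 0.53 at CT15. The groups met in Hspa4l and not in Hsp90aa1. In both genes all arrays of both times were above the gene's median, and their highest mean of the 8 times was at CT18. Hspb1, a small heat shock protein, measured 0.93, 0.58 and 0.65 at CT21, against 1.02, 0.43 and 0.44 at CT15 and had the only difference above 0 (0.089 ± 0.17, adjusted p = 0.788). The mitochondrial chaperonin genes Hspd1 (-0.086 ± 0.059) and Hspe1 (-0.05 ± 0.12) and the genes Hspa4 (-0.043 ± 0.052) and Fkbp4 (-0.022 ± 0.099) overlapped between groups. Ahsa1, the HSP90 ATPase activator, did not overlap (-0.29 ± 0.095, adjusted p = 0.0839). A p above the threshold does not show that these genes were level, and the difference between called and uncalled members was not tested.

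**Figure D3:**
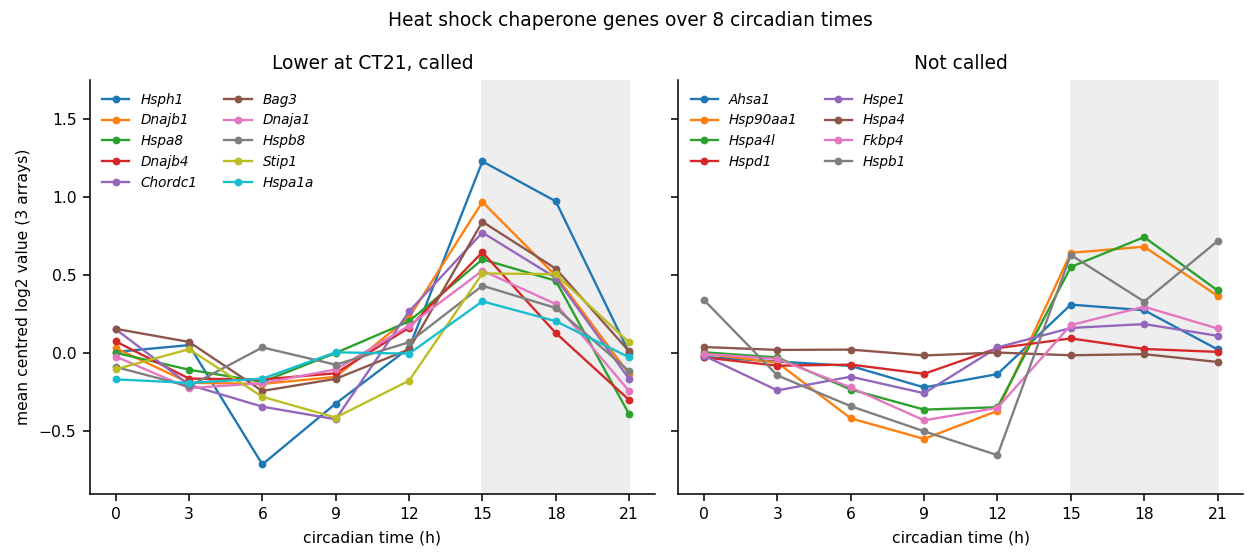
Mean centred log2 value (vertical axis, 3 arrays each) over circadian time in hours (horizontal axis) for the heat shock chaperone genes, the 10 called lower at CT21 on the left and the 8 not called on the right, with the compared span shaded. All 10 called genes have their highest mean at CT15, and Hsp90aa1 and Hspa4l on the right have theirs at CT18.

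Paired GAA blocks, GAANNTTC or TTCNNGAA (each reads the same on both strands, and matches may overlap), were found in the promoter windows of 11 of 16 heat shock genes with a window, or 68.8%, against 15.4% of tested genes and 15.1% of all windows. They were in 7 of the 9 called genes with a window and in 4 of the 7 that were not called, Fkbp4, Hspb1, Hspd1 and Hspe1. The windows of Hspd1 and Hspe1 overlap on opposite strands with equal counts of matches, so the same stretch is likely counted for both. The letters thus occurred in genes with and without a call. The windows of Hsph1 (chr5:149636287-149636586, minus strand) and Chordc1 (chr9:18292017-18292316, plus strand), credited to RefSeq on GRCm38.p6, are printed as the called members with 3 and 5 such blocks, in capitals:
Hsph1: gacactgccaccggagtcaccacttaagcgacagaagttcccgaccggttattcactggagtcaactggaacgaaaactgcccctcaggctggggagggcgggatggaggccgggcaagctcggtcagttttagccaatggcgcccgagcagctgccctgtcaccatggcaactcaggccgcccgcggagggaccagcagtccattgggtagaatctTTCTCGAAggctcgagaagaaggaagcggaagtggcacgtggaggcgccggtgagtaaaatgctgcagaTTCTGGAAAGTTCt
Chordc1: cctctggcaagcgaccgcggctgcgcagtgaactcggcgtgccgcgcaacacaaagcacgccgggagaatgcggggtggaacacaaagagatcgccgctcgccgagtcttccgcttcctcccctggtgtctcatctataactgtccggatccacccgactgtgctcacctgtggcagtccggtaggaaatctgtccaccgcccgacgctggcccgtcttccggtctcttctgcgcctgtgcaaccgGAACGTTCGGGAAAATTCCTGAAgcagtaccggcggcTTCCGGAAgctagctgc

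Of 27 tested chaperone and unfolded protein response genes of the endoplasmic reticulum, 3 were lower (11.1%, against 3.20% of all genes) and 0 higher, with a list median of -0.04. Dnajb9, a J-domain co-chaperone of BiP, measured -0.50, -0.71 and -0.88 at CT21, against 0.55, 1.04 and 0.41 at CT15 (-1.36 ± 0.18, adjusted p = 0.000183). Herpud1, a part of the degradation machinery of the membrane, measured -0.45, -0.14 and -0.44 at CT21, against 0.60, 0.58 and 0.48 at CT15 (-0.90 ± 0.094, adjusted p = 1.06e-05). Both genes were low in every CT21 array. Ddit3, the stress factor CHOP, was lower (-0.51 ± 0.098, adjusted p = 0.00474) and lost its call without both wide arrays (-0.35, adjusted p = 0.155). BiP itself, gene Hspa5, measured -0.27, 0.13 and -0.086 at CT21, against 0.074, 0.67 and 0.20 at CT15, with overlap and no call (-0.39 ± 0.14, adjusted p = 0.111). Xbp1 (0.051 ± 0.12), Atf4 (-0.04 ± 0.09) and Hsp90b1 were near 0.

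Of 10 tested glucocorticoid-responsive genes, Fkbp5 and Per1 were lower (against 3.20% of all genes) and none higher. Fkbp5, a co-chaperone that restrains the glucocorticoid receptor and is induced by it, measured 0.0069, 0.028 and -0.35 at CT21, against 1.02, 1.05 and 1.17 at CT15. All CT15 arrays were above 1 and no CT21 array reached 0.1, a 2.27-fold difference (adjusted p = 9.17e-05). Tsc22d3 (-0.29 ± 0.11, adjusted p = 0.133), Mt1 (-0.60 ± 0.23, adjusted p = 0.124) and Mt2 (-0.67 ± 0.31, adjusted p = 0.189) were below 0 without a call, and Sgk1 was at -0.066 ± 0.13.

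Called genes of the cholesterol list were all higher at CT21, but among them only Hmgcs1 and Dhcr7 are synthesis enzymes. Of 21 tested genes of cholesterol synthesis, uptake and their control, 4 were higher (19.0%, against 1.58% of all genes) and 0 lower. The list median was 0.20, with 14 genes above 0 and 7 below. Insig2 measured 0.23, 0.52 and 0.46 at CT21, against -0.67, -0.58 and -0.29 at CT15. Hmgcs1, the synthase that makes HMG-CoA, measured -0.029, 0.10 and 0.032 at CT21, against -0.87, -0.29 and -0.51 at CT15 and rose by 0.59 ± 0.11 (adjusted p = 0.00308). Neither gene overlapped between groups. Srebf2, the sterol-sensing transcription factor, rose by 0.26 ± 0.069 (adjusted p = 0.0364) and Dhcr7, which makes the last step to cholesterol, by 0.39 ± 0.096 (adjusted p = 0.0231). Insig1 was at -0.27 ± 0.13 (adjusted p = 0.201), and Sqle, Cyp51 and Idi1 were not called. Leaving out both wide arrays, 3 genes were called, Insig2, Hmgcs1 and Fdft1, while Dhcr7 (adjusted p = 0.117) and Srebf2 (adjusted p = 0.176) were not. When single arrays were left out, 2 to 4 genes were called, fewest without CT21 replicates 2 or 3 or CT15 replicates 1 or 3. Dhcr7 lost its call without CT21 replicates 2 or 3 (adjusted p = 0.074 and 0.129) or CT15 replicates 1 or 3 (adjusted p = 0.0625 and 0.054), and Srebf2 without CT21 replicates 2 or 3 (adjusted p = 0.105 and 0.127) or CT15 replicates 1, 2 or 3 (adjusted p = 0.0696, 0.0663 and 0.0798).

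Of 17 tested genes of bile acid synthesis and transport, 3 were higher and 2 lower, against 1.58% and 3.20% of all genes. The synthesis genes Hsd3b7 and Cyp8b1 were higher. Hsd3b7, a dehydrogenase of the sterol ring, measured 0.084, 0.12 and -0.054 at CT21, against -0.70, -0.42 and -0.54 at CT15 (0.60 ± 0.075, adjusted p = 9.17e-05). Cyp8b1, the sterol 12-alpha-hydroxylase that directs synthesis to cholic acid, measured 0.021, 0.31 and 0.20 at CT21, against -1.06, -0.71 and -0.054 at CT15 (0.78 ± 0.16, adjusted p = 0.00606). Its CT15 arrays were widely spread and the groups nearly met, and without both wide arrays its adjusted p was 0.0962. Abcb11, the bile salt export pump, rose by 0.34 ± 0.079 (adjusted p = 0.0165). The sterol exporters of bile, Abcg5 and Abcg8, which work as a dimer, were lower. Abcg5 measured -0.54, -0.37 and -0.79 at CT21, against 0.72, -0.019 and 0.29 at CT15 (-0.90 ± 0.16, adjusted p = 0.00241). Abcg8 measured -0.53, -0.47 and -0.63 at CT21, against 0.39, -0.19 and 0.087 at CT15 (-0.64 ± 0.13, adjusted p = 0.00819). Both genes were without overlap. Abcb11 lost its call without CT21 replicate 2 (adjusted p = 0.0754) or CT15 replicate 3 (adjusted p = 0.0624), and Abcg8 without CT21 replicate 3 (adjusted p = 0.0557). Cyp7a1, the rate-limiting enzyme of the classic path, was not called (-0.28 ± 0.19, adjusted p = 0.371).

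Of 24 tested genes of fatty acid and triglyceride synthesis, 4 were higher (1.58% of all genes) and 3 lower (3.20% of all genes). Beside Elovl3, the higher ones were Acss2, which makes acetyl-CoA from acetate (0.53 ± 0.12), Acacb, a carboxylase that curbs oxidation (0.59 ± 0.14), and Gpam, which starts triglyceride synthesis (0.43 ± 0.12). The lower ones all act on chain length or double bonds. Fads2, a desaturase, measured -0.28, -0.39 and -0.32 at CT21, against 0.70, 0.13 and 0.14 at CT15 (-0.65 ± 0.11, adjusted p = 0.00208). Elovl6, the elongase of palmitate, measured -0.37, -0.38 and -0.055 at CT21, against 0.63, 0.66 and 0.33 at CT15 (-0.81 ± 0.16, adjusted p = 0.00616). Elovl2, the elongase of polyunsaturated acids, fell as well (-0.30 ± 0.076, adjusted p = 0.0286). Fasn (-0.21 ± 0.22, adjusted p = 0.593), Scd1 (-0.07 ± 0.055, adjusted p = 0.459) and Srebf1 (-0.45 ± 0.15, adjusted p = 0.0766) were not called. Without both wide arrays Elovl3 was called higher and Fads2, Elovl6 and Lpin1, a phosphatidate phosphatase, lower (-1.15, adjusted p = 0.00749, against -0.62 ± 0.24 and adjusted p = 0.131 on all arrays). When single arrays were left out, 3 to 9 genes were called, fewest without CT21 replicate 2. Acss2 lost its call without CT21 replicates 2 or 3 (adjusted p = 0.0887 and 0.0791) or CT15 replicate 1 (adjusted p = 0.0512), and Acacb without CT21 replicates 2 or 3 (adjusted p = 0.0511 and 0.0998) or CT15 replicates 2 or 3 (adjusted p = 0.0503 and 0.0715). Gpam lost it without CT21 replicates 2 or 3 (adjusted p = 0.142 and 0.16) or CT15 replicates 1, 2 or 3 (adjusted p = 0.0884, 0.0716 and 0.0971), and Elovl2 without CT21 replicates 2 or 3 (adjusted p = 0.0639 and 0.144) or CT15 replicates 1 or 3 (adjusted p = 0.0831 and 0.0562).

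Fatty acid oxidation genes were lower where they were called. Of 20 tested, 4 were lower (3.20% of all genes) and 0 higher, with a median of -0.20. Cpt1a, the gate for entry of fatty acids into mitochondria, measured -0.38, -0.37 and -0.43 at CT21, against 0.38, 0.031 and 0.16 at CT15, without overlap (-0.58 ± 0.091, adjusted p = 0.000749). Ppara, the receptor that drives these genes, measured -0.36, -0.25 and -0.54 at CT21, against 0.19, -0.039 and 0.17 at CT15 (-0.49 ± 0.098, adjusted p = 0.00665) and lost its call without CT21 replicate 3 (-0.41, adjusted p = 0.0603). Acadl (-0.34 ± 0.095, adjusted p = 0.0442) and Cyp4a14 were the others. Cpt1a and Ppara were called without both wide arrays. Leaving out single arrays gave 1 to 8 calls, fewest without CT21 replicate 3. Acadl lost its call without CT21 replicates 2 or 3 (adjusted p = 0.0814 and 0.26) or CT15 replicates 1, 2 or 3 (adjusted p = 0.0504, 0.148 and 0.0885), and Cyp4a14 without CT21 replicates 2 or 3 (adjusted p = 0.109 and 0.19) or CT15 replicates 1, 2 or 3 (adjusted p = 0.081, 0.055 and 0.0926). Pdk4 (0.28 ± 0.19), Fgf21 (-0.079 ± 0.09) and Cyp4a10 (-0.67 ± 0.28) were not called.

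Of 11 tested genes of glycolysis and glycogen, Ppp1r3c was higher and Gys2 and Slc2a2 lower, against 1.58% and 3.20% of all genes. Gys2, the liver glycogen synthase, measured -0.37, -0.33 and -0.35 at CT21, against 0.27, 0.44 and 0.43 at CT15. The CT21 arrays were tight and low (-0.73 ± 0.10, adjusted p = 0.000369), while Ppp1r3c, which activates that enzyme, was higher. Slc2a2, the glucose transporter GLUT2, was lower (-0.42 ± 0.092, adjusted p = 0.0128) and lost its call without both wide arrays (-0.36, adjusted p = 0.193) and without CT21 replicate 3 (adjusted p = 0.0879) or CT15 replicate 3 (adjusted p = 0.0657). Of 19 genes of gluconeogenesis and amino acid catabolism, Hal was higher (0.44 ± 0.08, adjusted p = 0.00349) and Slc37a4 (-0.54 ± 0.13, adjusted p = 0.0186) and Arg1 (-0.23 ± 0.058, adjusted p = 0.0286) lower. Over all genes 1.58% were higher and 3.20% lower. Pck1 (-0.64 ± 0.36, adjusted p = 0.289) and G6pc (0.46 ± 0.15, adjusted p = 0.0793) were not called. Slc37a4 was not called without both wide arrays (adjusted p = 0.177). It also lost its call without CT21 replicate 3 (adjusted p = 0.0713) or CT15 replicates 2 or 3 (adjusted p = 0.0698 and 0.0874). Arg1 lost it without CT21 replicate 3 (adjusted p = 0.177) or CT15 replicates 1 or 3 (adjusted p = 0.0799 and 0.0971), and Ppp1r3c without CT21 replicate 2 (adjusted p = 0.0787) or CT15 replicate 3 (adjusted p = 0.0517).

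Genes of NAD metabolism were lower at CT21 where they were called. Nampt, the rate-limiting enzyme of salvage, measured -0.19, -0.18 and -0.15 at CT21, against 0.70, 0.83 and 0.81 at CT15. Both groups were tight and the difference was -0.95 ± 0.11 (adjusted p = 4.33e-05). Nmnat1 (-0.33 ± 0.068, adjusted p = 0.00842) and Nadsyn1 (-0.29 ± 0.073, adjusted p = 0.0263) were the other calls of 14 tested genes, all lower (3.20% of all genes were). Nmnat1 lost its call without CT21 replicate 3 (adjusted p = 0.0756) or CT15 replicate 2 (adjusted p = 0.0523), and Nadsyn1 without CT21 replicates 2 or 3 (adjusted p = 0.0854 and 0.162) or CT15 replicates 1 or 3 (adjusted p = 0.0753 and 0.0732). With single arrays left out, 1 to 5 genes were called, fewest without CT21 replicate 3. On the arrays without the wide pair, Nampt, Nadsyn1 and Nadk (-0.38, adjusted p = 0.0462) were called. Sirt1, which uses NAD, was not called (-0.26 ± 0.089, adjusted p = 0.0882).

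Of 19 tested cell cycle genes, 6 were lower (31.6%, against 3.20% of all genes) and 0 higher. Wee1, the kinase that holds back CDK1 and is a known clock output in liver, measured -0.26, -0.46 and -0.83 at CT21, against 0.37, 0.77 and 0.72 at CT15 (-1.14 ± 0.17, adjusted p = 0.000619). Rrm2, the regulated subunit of ribonucleotide reductase, measured -0.11, -0.27 and -0.16 at CT21, against 0.35, 0.42 and 0.58 at CT15 (-0.63 ± 0.084, adjusted p = 0.000206). Neither gene overlapped between groups. The cyclin genes Ccne1 (-0.46 ± 0.096) and Ccne2 (-0.33 ± 0.084), the phosphatase gene Cdc25a (-0.39 ± 0.09) and Pcna (-0.40 ± 0.11) were the others, of which Ccne1 alone joined Wee1 and Rrm2 among the calls without both wide arrays. With single arrays left out, 3 to 7 genes were called, fewest without CT21 replicates 2 or 3 or CT15 replicate 2. Ccne1 lost its call without CT21 replicate 2 (adjusted p = 0.0542), Cdc25a without CT21 replicates 2 or 3 (adjusted p = 0.0517 and 0.0845) or CT15 replicate 2 (adjusted p = 0.0936), Ccne2 without CT21 replicates 2 or 3 (adjusted p = 0.0904 and 0.12) or CT15 replicates 2 or 3 (adjusted p = 0.148 and 0.0586) and Pcna without CT21 replicate 3 (adjusted p = 0.223) or CT15 replicates 2 or 3 (adjusted p = 0.127 and 0.127). The mitotic genes Mki67 (-0.012 ± 0.078), Cdk1 (-0.019 ± 0.075) and Top2a (-0.016 ± 0.044) were near 0.

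Among 18 genes of nucleotide synthesis, 4 were lower, against 3.20% of all genes, and 0 higher. Ppat, which starts purine synthesis, measured -0.28, -0.24 and -0.26 at CT21, against 0.20, 0.54 and 0.33 at CT15 (-0.62 ± 0.096, adjusted p = 0.000776). Gmps, which makes GMP, measured -0.37, -0.22 and -0.40 at CT21, against 0.14, 0.38 and 0.34 at CT15 (-0.61 ± 0.077, adjusted p = 0.000104). Both were without overlap and were the 2 genes called without both wide arrays. The pyrimidine genes Cad (-0.36 ± 0.098, adjusted p = 0.0379) and Umps (-0.24 ± 0.068, adjusted p = 0.0434) were the others. Cad lost its call without CT21 replicates 1, 2 or 3 (adjusted p = 0.0502, 0.135 and 0.067) or CT15 replicates 1 or 2 (adjusted p = 0.0889 and 0.162), and Umps without CT21 replicates 2 or 3 (adjusted p = 0.0674 and 0.229) or CT15 replicates 2 or 3 (adjusted p = 0.209 and 0.139). Ribosome biogenesis genes showed small differences of the same sign. All 22 were below 0, as were 8961 of all 19935 genes and 71.5% of the 2744 genes in the upper level class (a split by rounding steps of the values, which holds 2 of the 22). The list median was -0.22, and only Ncl (-0.45 ± 0.088, adjusted p = 0.00513) and Npm1 (-0.54 ± 0.12, adjusted p = 0.00996) were called, and without both wide arrays 0 were, with 21 of 22 below 0. Npm1 lost its call without CT21 replicate 3 (adjusted p = 0.0769) or CT15 replicate 2 (adjusted p = 0.0631). Proteasome subunits gave 2 lower calls of 24 (against 3.20% of all genes), Psmb6 (-0.26 ± 0.066) and Psma2 (-0.23 ± 0.06), and 0 without both wide arrays. Psmb6 lost its call without CT21 replicates 2 or 3 (adjusted p = 0.0793 and 0.0968) or CT15 replicates 2 or 3 (adjusted p = 0.0542 and 0.127), and Psma2 without CT21 replicates 2 or 3 (adjusted p = 0.0953 and 0.192) or CT15 replicates 2 or 3 (adjusted p = 0.134 and 0.0972).

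Growth hormone dependent and sex-biased genes gave 3 higher calls of 15, against 1.58% of all genes, and 0 lower. Beside Elovl3 these were Stat5b, the main transducer of growth hormone in liver (0.42 ± 0.083, adjusted p = 0.00562), and Hsd3b5, a steroid dehydrogenase of male liver. Hsd3b5 measured -0.12, 0.02 and 0.016 at CT21, against -1.38, -0.12 and -0.88 at CT15, with a wide CT15 group that overlapped the CT21 arrays (0.76 ± 0.19, adjusted p = 0.0282), and related genes may share its probes. It lost its call without CT21 replicates 2 or 3 (adjusted p = 0.09 and 0.118) or CT15 replicates 1 or 3 (adjusted p = 0.0819 and 0.0808). Among 8 tested RNA-binding protein genes, Noct, a rhythmic NADP phosphatase once classed as a deadenylase, was lower (-0.62 ± 0.15, adjusted p = 0.0254). Caprin1 was higher (0.23 ± 0.054, adjusted p = 0.0172). Over all genes 3.20% were lower and 1.58% higher. Noct lost its call without CT21 replicate 3 (adjusted p = 0.115) or CT15 replicate 1 (adjusted p = 0.0758), and Caprin1 without CT21 replicate 2 (adjusted p = 0.0789). Caprin1 was also not called without both wide arrays (0.26, adjusted p = 0.0721). The cold-inducible Rbm3 (-0.49 ± 0.15, adjusted p = 0.0628) and Cirbp (0.078 ± 0.12, adjusted p = 0.722) were not called.

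Xenobiotic genes gave Abcb1a (-0.52 ± 0.096) and Ephx1 (-0.29 ± 0.078), both lower (3.20% of all genes were), of 20, and neither was called without both wide arrays, where Cyp1a2 was called higher (0.32, adjusted p = 0.032). Single calls came from the autophagy list (Bnip3, -0.57 ± 0.12), the plasma protein list (Hp, -0.22 ± 0.057) and the Kruppel-like factors (Klf5, 0.27 ± 0.074). Klf5 lost its call without CT21 replicates 2 or 3 (adjusted p = 0.118 and 0.217) or CT15 replicates 2 or 3 (adjusted p = 0.216 and 0.0756). Hp lost it without CT21 replicates 2 or 3 (adjusted p = 0.0551 and 0.154) or CT15 replicates 1, 2 or 3 (adjusted p = 0.0566, 0.0523 and 0.0874), Bnip3 without CT21 replicate 3 (adjusted p = 0.0571) and Ephx1 without CT21 replicates 2 or 3 (adjusted p = 0.125 and 0.181) or CT15 replicates 2 or 3 (adjusted p = 0.158 and 0.0697). The adjusted p without both wide arrays was 0.584 for Klf5, 0.187 for Hp and 0.0846 for Bnip3. No gene was called in 6 lists, the 19 respiratory chain genes, 14 ribosomal protein genes, 20 immediate early genes, 16 insulin and feeding-responsive genes, 16 heme and iron genes and 9 reference genes. Of these 94 genes, 23 had an unadjusted limma p under 0.05, as did 23.9% of all genes. Leaving out single arrays gave 0 to 2 calls in the insulin, heme and immediate early lists and 0 to 1 in the reference list. Without both wide arrays Lepr, the leptin receptor gene of the insulin and feeding list, was called lower (-0.98, adjusted p = 0.0235). Alas1, the rate-limiting enzyme of heme synthesis, had a large difference of -0.90 ± 0.35 without a call (adjusted p = 0.133). Among the reference genes Actb was at 0.20 ± 0.066 and Tbp at -0.27 ± 0.091. In all, 80 calls fell on 481 tested places in 29 lists, some genes standing in 2 lists, and 4.78% of all genes were called.

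**Figure D4:**
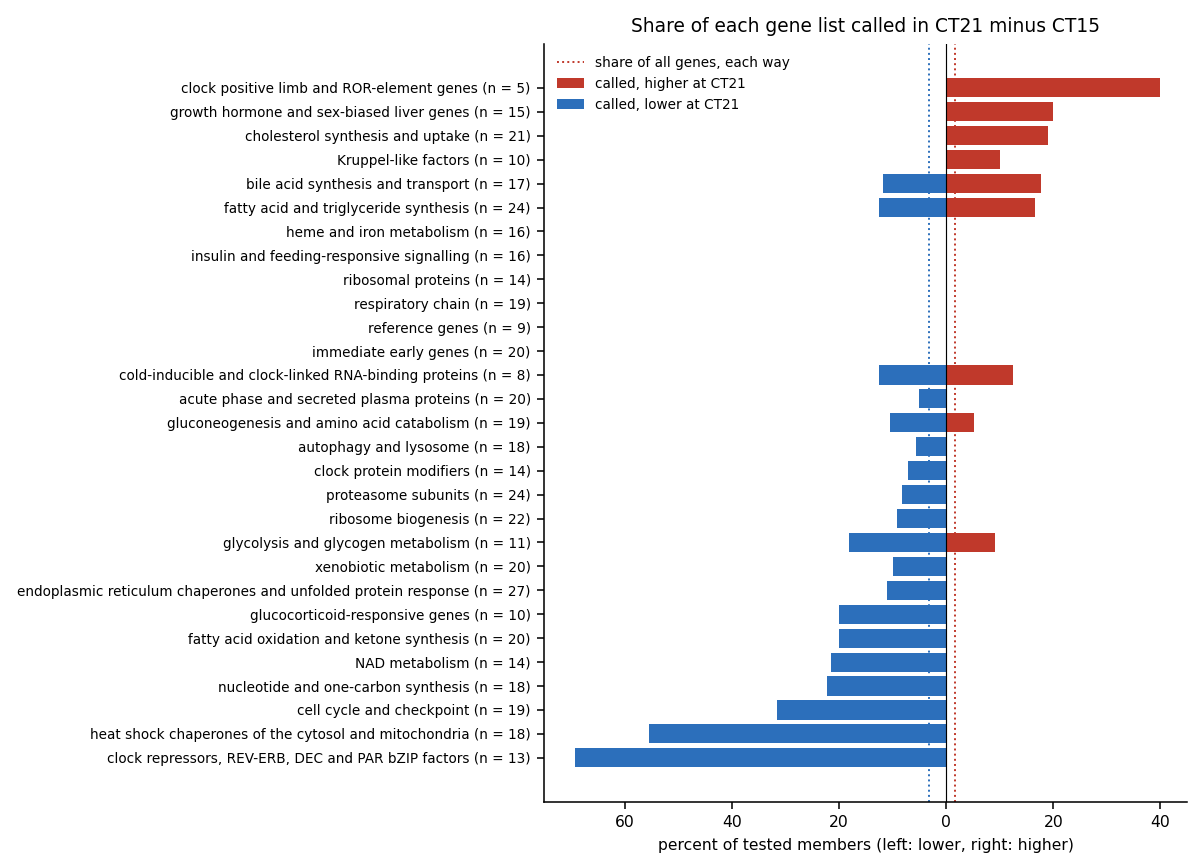
Percent of the tested members of each of 29 gene lists (horizontal axis) called lower at CT21 (blue bars, to the left) or higher (red bars, to the right), with the number of members tested in brackets and dotted lines at the shares of all genes (3.20% lower and 1.58% higher). The clock repressor list at 69.2% and the heat shock list at 55.6% extend farthest to the left.

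The CT18 arrays, which lie midway, gave the course within the 6 h. Over the first 3 h (CT18 minus CT15) 29 genes were called (0.145%), of which 9 were higher and 20 lower. Over the last 3 h (CT21 minus CT18) 43 were called (0.216%), 23 higher and 20 lower. These steps share the CT18 arrays. A test of CT18 against the midpoint of CT15 and CT21 called 0 genes by limma, with 976 at an unadjusted p under 0.05, and a departure from an even course was therefore not shown for any single gene. Among the 952 called genes CT18 lay outside the range of both means in 53.

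Some named genes still had most of their difference in the first or the last 3 h by their values. Ciart measured -0.46, -0.89 and -0.43 at CT18, with a first step of -1.42 (adjusted p = 0.0126) and a last step of -0.15 (adjusted p = 0.933). For Nr1d1 the steps were -1.64 (adjusted p = 0.0248) and 0.39 (adjusted p = 0.812), and for Aqp8 1.02 (adjusted p = 0.00478) and 0.67 (adjusted p = 0.0527). In these genes the first step was the called one.

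Hsph1 had most of its difference in the last 3 h. Its CT18 arrays, at 0.91, 0.81 and 1.21, were nearly as high as at CT15. The first step was -0.26 (adjusted p = 0.474) and the last -0.97 (adjusted p = 0.00197). Rnf125 (0.25 and 1.18), Elovl3 (0.39 and 1.27) and Clpx (0.31 and 0.71) were likewise called in the last step alone, with adjusted p of 0.000287, 0.00108 and 0.000272. Dtx4 was called in both steps (0.41 and 0.40, adjusted p = 0.0191 and 0.0141). A call in only one of these steps does not show that they differ.

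The step was also set against the 6 h step at the opposite side of the cycle, CT09 minus CT03, which uses other arrays and called 562 genes (2.82%). A pure 24 h wave makes these steps equal and opposite, so that their sum is 0. Of the 198 genes called in both steps, 190 had opposite signs and 8 the same. The sum differed from 0 for 192 genes (0.963%), 38 above 0 and 154 below, with 3867 genes at an unadjusted p under 0.05. Of the 192, 123 were also called in the night step.

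Hsph1 had the most negative sum of the genes called in both tests, -1.60 ± 0.19 (adjusted p = 0.000658). Its day step was -0.37, the same sign as its night step of -1.23. P4ha1 had a night step of -1.10 and a day step of -0.13 (sum -1.23, adjusted p = 0.000658). Arntl rose by 0.90 at night and had a day step of -2.35, so that its day fall was the larger (sum -1.44, adjusted p = 0.000758). Usp2 was the counterpart, with a night step of -0.80 and a day step of 2.08 (sum 1.28, adjusted p = 0.00267). Aqp8 came close to equal and opposite steps, at 1.68 and -1.60 (sum 0.079 ± 0.20).

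Gmppb, which makes GDP-mannose (-1.37, adjusted p = 0.0219), and Hspa13, an HSP70 relative of microsomes (-1.23, adjusted p = 0.0228), were the other large negative sums. Sycn (0.62), Six3os1 (0.60), Lrrc26 (0.51) and Fut2 (0.49) followed Usp2 among the positive ones. In the night step, Gmppb lost its call without CT21 replicate 3 (adjusted p = 0.1) or CT15 replicate 2 (adjusted p = 0.0905) and Hspa13 without CT21 replicates 1, 2 or 3 (adjusted p = 0.083, 0.0517 and 0.214) or CT15 replicates 2 or 3 (adjusted p = 0.235 and 0.123). Six3os1 lost it without CT21 replicates 2 or 3 (adjusted p = 0.0736 and 0.0902) or CT15 replicate 2 (adjusted p = 0.0998), Lrrc26 without CT21 replicate 3 (adjusted p = 0.17) or CT15 replicates 2 or 3 (adjusted p = 0.106 and 0.0588) and Fut2 without CT21 replicate 3 (adjusted p = 0.158) or CT15 replicate 2 (adjusted p = 0.0983). The count of sums was unstable. It was 649, 96 and 31 without CT21 replicates 1, 2 and 3, 559, 66 and 161 without CT15 replicates 1, 2 and 3, 109, 66 and 483 without the CT09 replicates in the same order, and 64, 76 and 90 without those of CT03. Without both wide arrays 6 genes were called, Hsph1 (-1.54), Arntl (-1.40), P4ha1 (-1.21), Usp2 (1.16), Bhlhe41 (1.26) and Dnajc18 (-0.69), while Gmppb, Hspa13, Sycn, Six3os1, Lrrc26 and Fut2 were not.

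**Figure D5:**
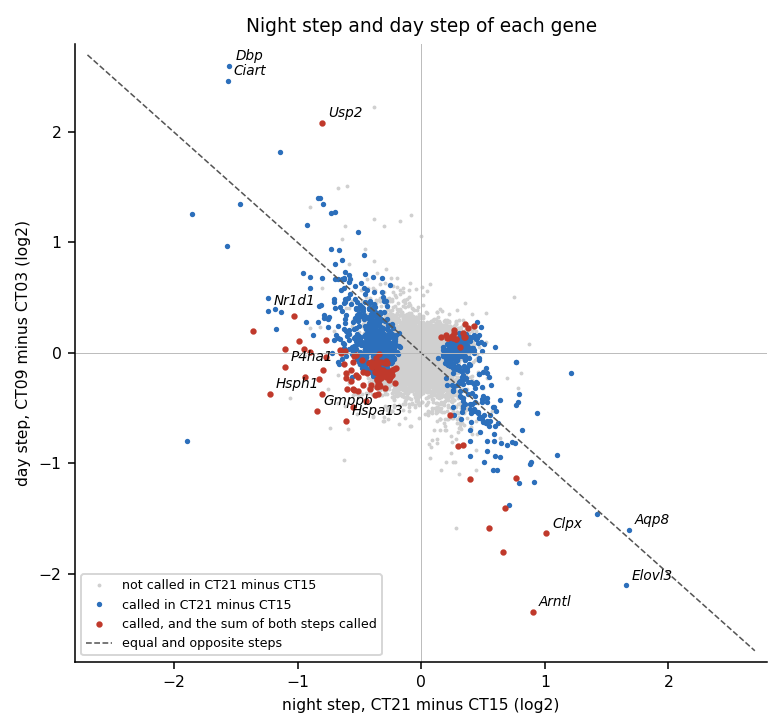
Night step (CT21 minus CT15, horizontal axis, log2) against day step (CT09 minus CT03, vertical axis, log2) for 19935 genes, with genes called in the night step in blue, those whose sum of steps was also called in red, all others in grey and a dashed line where the steps are equal and opposite. Aqp8 lies near the dashed line, while Hsph1, P4ha1 and Arntl lie below it and Usp2 above it.

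Markers of cell types that liver samples can hold gave no call. All 11 lists (79 tested genes) had 0 calls by limma, and the hepatocyte list was among them (0 of 8, median -0.036). An unadjusted p under 0.05 was found for 16 of the 79, and for 23.9% of all genes. Row-centred values give no level, so the presence of these cells could not be checked. Leaving out CT15 replicate 1 gave 3 calls over the 11 lists, and leaving out CT15 replicate 2 or CT21 replicate 3 gave 1 each. Leaving out both wide arrays, Pdgfrb, a stellate cell and fibroblast gene, was called higher (0.29, adjusted p = 0.0415). The CT21 replicate 3 array was lowest and the CT15 replicate 3 array highest of the 6 in the Kupffer cell list. The list mean was 0.13, 0.07 and -0.31 at CT21, against -0.028, -0.18 and 0.30 at CT15, and its part in the results was not tested. All 9 neutrophil genes were above 0, with a median of 0.10 and a list mean of 0.0015, 0.066 and 0.059 at CT21, against -0.042, -0.13 and -0.027 at CT15. Of 6 exocrine pancreas genes 5 were above 0 (median 0.18), and Sycn, a protein of pancreatic zymogen granules, was called in the night step (0.36 ± 0.073, adjusted p = 0.00696). The pancreas list had a mean of -0.01, 0.11 and 0.14 at CT21, against -0.039, -0.14 and -0.048 at CT15, and whether pancreas RNA had a part in Sycn was not tested. CT15 replicate 2 had the lowest mean of the 6 arrays in the neutrophil and pancreas lists. The same held in the lymphocyte (-0.24), red blood cell (-0.073), muscle (-0.097), adipocyte (-0.069), stellate cell (-0.13) and hepatocyte (-0.073) lists. It did not hold in the Kupffer cell, endothelial cell and bile duct lists. Sycn lost its call without CT21 replicate 3 (0.30, adjusted p = 0.0624).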

How the data were processed

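The deposited series table held 28815 probe sets on 24 arrays as log2 values, row-centred by the authors, judging from row medians of 0 (within 5e-07). No source used here gives the log base or the normalization before that. GEO's platform annotation gave 1 symbol for 21780 probe sets, several for 1605, and did not list 5430. Probe sets of a gene were averaged (998 genes), which left 19935 genes. Group means of the 8 times were fitted in R 4.3.3 by limma 3.58.1, moderated by empirical Bayes, with Benjamini-Hochberg adjustment at 0.05, after the code was tested on simulated data. Named genes are the 15 largest called differences each way, the clock lists, the 3 members with the smallest p in each other list, the 5 largest sums of steps each way and called markers. Predicted, small RNA and olfactory receptor genes were passed over. Other list members and genes given beside these were named after their values were seen. The members and lists were chosen with earlier results of these data known. The alternatives changed the arrays in the fit, the normalization, the probe set rule, the level class (a split of probe sets by the rounding steps of their values), moderation, weights, covariates and the call rule. Promoters came from RefSeq's table (GRCm38.p6).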

Additional observations from a re-analysis of the deposited data

How the results depend on the processing

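All genes called in the night step that an alternative still tested kept their sign under every alternative, except 1 of 952 with the probe set of largest variance. The genes were picked on these same arrays, and several alternatives leave the difference itself unchanged, so a kept sign is not support. The count of 952 was 123 with only the compared arrays, 528 after quantile normalization and 455 with arrays scaled to equal interquartile range. It was 237 without both wide arrays, 140 with a minimum of 1.5-fold and 292 at an adjusted p under 0.01. The upper level class holds only 2744 genes, of which 327 were called. Of the 249 main calls tested there, 248 were called again, on these same arrays. Array weights gave 2405, and the share of higher calls was then 43.6% against 33.0%. Leaving out single arrays gave 279 to 1830. The equal scaling and the omission of both wide arrays were chosen after seeing the data. The count of 192 for the sum of both steps was 28 with only the compared arrays, 91 without the CT00 arrays and 1212 with array weights. It was 72 without moderation, 107 after quantile normalization, 98 with equal scaling and 6 without both wide arrays. With a minimum of 1.5-fold it was 84, at an adjusted p under 0.01 it was 19, and leaving out single arrays gave 31 to 649. In the upper level class 73 of the 2744 genes were called for the sum, among them all 53 main calls tested there. The midpoint test called 1 gene after quantile normalization and 0 to 2 when single arrays were left out. Apart from the alternatives with fewer genes, fewer arrays or a stricter rule, the cause of these moves was not tested. With the replicate number as a block, 1156 genes were called in the night step, 241 in the sum and 0 at the midpoint. CT21 and CT15 arrays of one number come from separate livers, and no pairing was used. The deviations of same-numbered CT21 and CT15 arrays correlated at -0.11, 0.0093 and 0.080. So few values cannot show whether the number marks a shared batch. Of the 81 called genes picked by the naming rules, 35 kept their call in every alternative. Of 2199 pairs of a gene picked by those rules, called or not, and an alternative, 227 lost a call, 42 gained one and 0 changed sign while called. Other genes given in the text are not in these counts. Arrays centred by row carry no signal over background, so dim genes could not be set aside other than by level class.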

Other observations

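Probe sets outside the gene table were fitted in the same model, with the adjustment over all 28815 probe sets. Of the 1605 with several symbols, 71 were called (4.42%), 15 higher and 56 lower at CT21. Of the 5430 without an entry in the annotation, 112 were called (2.06%), 60 higher and 52 lower. The 21780 with a single symbol gave 916 calls (4.21%).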
